A study of Mus musculus with 12 samples.

Results

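The untreated state of 2 mouse cell lines of the peritoneal cavity was compared: PMJ2R, a macrophage line from peritoneal lavage, and ID8, an ovarian cancer line from ovarian surface epithelium. The members are the control libraries of both lines, chosen by their treatment label, which makes 6 of the series' 12 libraries, with 3 a line. The other 6 libraries were treated with rebastinib, an inhibitor of the TIE2 kinase, at 5 nM for 6 h and are not used here except in 1 alternative fit. Both lines are labelled female and C57BL6J, ID8 as wildtype epithelial cells and PMJ2R as macrophages that carry the v-raf and v-myc oncogenes. The study as a whole asked what rebastinib does to tumour cells and macrophages, and the control cells show what each line expressed beforehand.

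Each line is 1 established line, so a difference between them is one between these lines and not between cell types in general. The lines were grown in different media, and trypsin is stated for ID8 only, so medium and harvest cannot be told apart from cell line. The labels do not say whether the 3 libraries of a line came from separate cultures, so p-values reflect how far these samples differ among themselves, a spread that may be technical only.

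Macrophages are built by a small set of lineage transcription factors, above all PU.1, the product of Spi1. PU.1 opens enhancers together with factors such as IRF8, and the cells depend on CSF1 signalling through the receptor CSF1R. Large macrophages resident in the peritoneum are also known for GATA6, which is induced by retinoic acid from mesothelial cells. The ovarian surface epithelium is a mesothelium: it expresses simple-epithelial keratins together with mesenchymal proteins such as vimentin, and WT1 and the GATA factors GATA4 and GATA6 are its known regulators. ID8 cells grow in the peritoneum of syngeneic mice, where they meet macrophages.

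Library totals ran from 22102800 to 27070556 counts. At this depth, and with the libraries scaled as for CPM, a gene with no count in a line was below 0.0456 CPM (counts scaled to a library of fixed size) in ID8 or 0.0387 CPM in PMJ2R, the level of 3 counts over the 3 libraries; this floor, and the intervals on ratios below, cover counting error only. Of 15924 genes that passed the expression filter, edgeR's quasi-likelihood test called 2890 higher in PMJ2R (18.1%) and 4076 higher in ID8 (25.6%), together 43.7%, at a Benjamini-Hochberg adjusted p under 0.05 and at least a 2-fold difference. The median difference over all tested genes was -0.03 on the log2 scale, written here and below as PMJ2R minus ID8. At 1 CPM or more in all 3 libraries of a line, the level called present below, 10938 tested genes were present in both lines, 2139 only in ID8 and 1264 only in PMJ2R. Mitochondrial genes took 2.92 to 3.14% of the counts in ID8 and 3.50 to 4.25% in PMJ2R. Since such a share of the transcriptome differed, the counts of a gene list below are read against 18.1% and 25.6%. A member too low in both lines to pass the filter is never counted as equal. A gene seen in 1 line only passes the filter through that line, which fixes its direction. The lists were also chosen with earlier results of these data known, so such shares describe the lists and test nothing.

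The 4 genes taken as markers of the lines separated them completely. Such separation was common: in 13236 of the 15924 tested genes the libraries of the lines did not overlap. Spi1 (ENSMUSG00000002111, chr2:91082390-91115756, GRCm38, plus strand) had no count in ID8 and stood at 178, 187 and 220 CPM in PMJ2R, at least 4275-fold higher. Laptm5 (ENSMUSG00000028581, chr4:130913125-130936141, plus strand), a lysosomal membrane protein of blood cells, had no count in ID8 and 725, 770 and 821 CPM in PMJ2R, at least 16937-fold higher. Both genes taken as markers of the macrophage label were thus present in every PMJ2R library. These 2 genes alone do not settle the label. Of 17 tested macrophage transcription factors, given below, 7 were called higher in PMJ2R and 4 higher in ID8. Krt8 (ENSMUSG00000049382, chr15:101996698-102004482, minus strand), a keratin of simple epithelia, stood at 845, 824 and 906 CPM in ID8 and had 1 count in all PMJ2R libraries together, a ratio of 66558 with a 95% interval from 11945 to 2628950. Sparc (ENSMUSG00000018593, chr11:55394500-55423183, minus strand), a matrix glycoprotein, stood at 1584, 1575 and 1605 CPM in ID8 and at 0.206, 0.107 and 0.119 CPM in PMJ2R (log2 difference -13.40, SE 0.128, adjusted p = 2.76e-23). No library of one line came near the range of the other line for any of the 4.

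**Figure D1:**
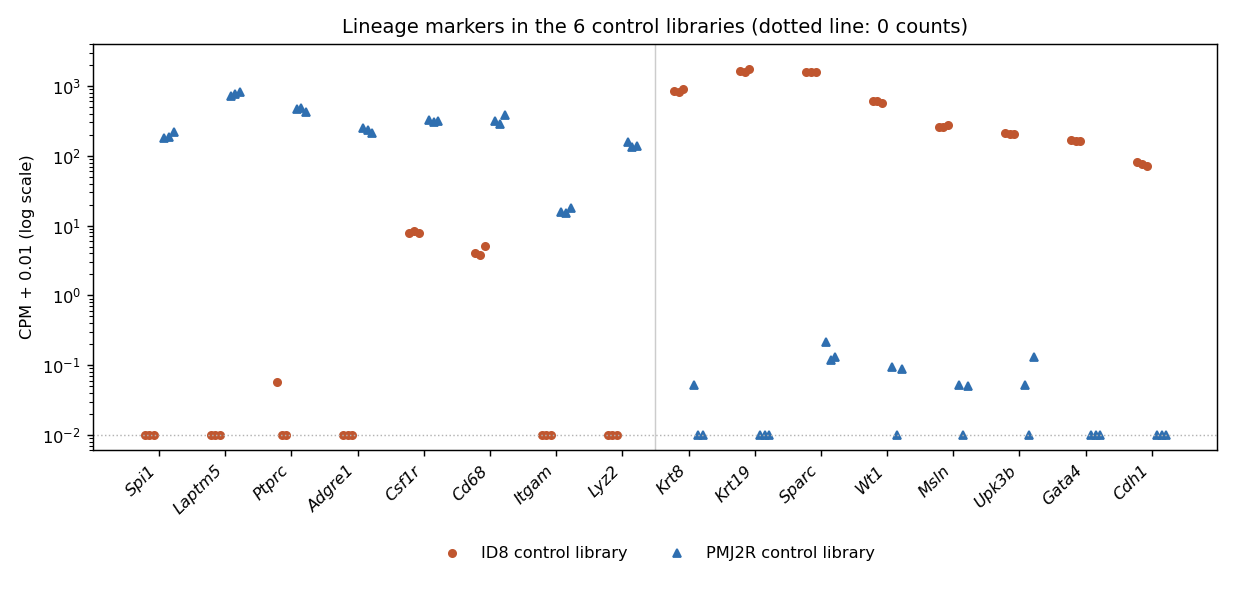
CPM (log axis, 0.01 added) of 8 macrophage genes (left) and 8 genes of the ovarian surface and of epithelia (right) in each library. Circles are the 3 ID8 control libraries, triangles the 3 PMJ2R control libraries, and the dotted line marks 0 counts; Spi1 lies on that line in ID8 and between 178 and 220 CPM in PMJ2R, and Krt19 lies on it in PMJ2R and between 1604 and 1744 CPM in ID8.

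The signalling and cytoskeletal proteins that blood cells share formed the most uniform group of PMJ2R: all 30 members of a list of them passed the filter and all 30 were called higher in PMJ2R, against 18.1% of all tested genes. Their median log2 difference was 10.97, against -0.03 over all tested genes. With genes that had no count in ID8 set to their lower bound it was 9.94. All 30 were present in PMJ2R and 8 in ID8, so many passed the filter through PMJ2R alone. Lcp1, the leukocyte actin bundler L-plastin, stood at 890, 932 and 940 CPM in PMJ2R and at 0.139, 0.139 and 0.0441 CPM in ID8. Arhgdib, which inhibits small GTPases in blood cells, stood at 569, 551 and 657 CPM in PMJ2R and at 9.68, 11 and 11.8 CPM in ID8. Vav1, an exchange factor for Rac, had no count in ID8 and 153, 158 and 156 CPM in PMJ2R, at least 3415-fold higher. All these genes had PMJ2R libraries within a narrow range and ID8 libraries far below it. Among kinases of the list, Btk and Lcp2 also had no count in ID8, whereas Lyn was present in both lines, at 77.3, 75.3 and 73.5 CPM in PMJ2R and 22.3, 21.7 and 23.8 CPM in ID8 (log2 difference 1.74, SE 0.0666, adjusted p = 2.62e-15). Inpp5d, the phosphatase SHIP1, had 304, 319 and 336 CPM in PMJ2R and a single count in ID8. Ptpn6, the phosphatase SHP-1, and Dock8, an exchange factor for CDC42, were low but present in ID8, with means of 6.12 and 5.75 CPM there and 348 and 342 CPM in PMJ2R.

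Surface receptors of macrophages showed the same direction with a sharp split between those measured and those at the floor. Of 45 members, 31 passed the filter, 29 were called higher in PMJ2R and 0 in ID8. At an adjusted p under 0.05 alone, without the fold condition, 1 of the 2 uncalled members differed. It was Csf2ra, with means of 29.4 CPM in ID8 and 22.2 in PMJ2R. By that looser rule 13113 of all 15924 tested genes differed. Ptprc, the leukocyte phosphatase CD45, stood at 474, 476 and 424 CPM in PMJ2R and had a single count in ID8. Sirpa, the inhibitory receptor that binds CD47, stood at 337, 354 and 381 CPM in PMJ2R and at 0.139, 0.186 and 0.220 CPM in ID8. Csf1r stood at 328, 305 and 313 CPM in PMJ2R and at 7.83, 8.45 and 7.81 CPM in ID8 (log2 difference 5.30, SE 0.0756, adjusted p = 4.32e-22). Cd68, a lysosomal glycoprotein of phagocytes, was likewise low but present in ID8, at 4.03, 3.72 and 5.03 CPM, against 311, 283 and 380 CPM in PMJ2R. Tlr4, the receptor for lipopolysaccharide, was not called, with mean levels of 30.1 CPM in ID8 and 33.8 CPM in PMJ2R (adjusted p = 0.105).

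Several receptors used to recognise tissue macrophages were at or near 0 in PMJ2R. Timd4, the phosphatidylserine receptor of resident macrophages, had no count in either line. Marco and Vsig4 had 1 count each over the 3 PMJ2R libraries, and Cd163 and Lyve1 had none there. Mertk, the receptor for apoptotic cells, had 3 counts in PMJ2R, Ccr2, the receptor of recruited monocytes, had 9, and Cx3cr1 had 15. Adgre1, which encodes the F4/80 antigen, was in contrast high in PMJ2R, at 254, 238 and 213 CPM with no count in ID8. Itgam, which encodes CD11b, stood at 15.8, 15.1 and 17.7 CPM in PMJ2R with no count in ID8. Adgre1 and Itgam were thus present beside the markers of the macrophage label, and several other receptors of tissue macrophages, Mertk among them, were not. The C1q genes given below were also at or near 0 in PMJ2R.

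Most genes of the resident peritoneal macrophage list were low or absent in PMJ2R: 5 of 22 were present there, 7 in ID8 and 12 in neither line. Of 22 members, 13 passed the filter, 6 were called higher in PMJ2R and 5 higher in ID8. Gata6 stood at 162, 161 and 150 CPM in ID8 and had 2 counts in PMJ2R, both in 1 library. Rarb, a retinoic acid receptor, stood at 8.80, 10.4 and 9.66 CPM in ID8 and at 0.453, 0.573 and 0.158 CPM in PMJ2R. Ltbp1, Thbs1 and Tgfb2, which bind, activate or encode TGF-beta, were the other 3 members called higher in ID8. On the PMJ2R side Icam2, an adhesion molecule, stood at 9.85, 9.06 and 11.3 CPM against a single count in each ID8 library. Naip5, Fcna, Saa3, C4b and Selp were the other members higher in PMJ2R, with means of 3.68, 3.28, 1.17, 1.11 and 0.686 CPM.

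Genes of the phagosome and lysosome were higher in PMJ2R by very different amounts. Of 23 members, 15 were called higher in PMJ2R and 0 in ID8 among 20 that passed the filter. By adjusted p alone the remaining 5 tested members, Ctsb, Ctsl, Ctsd and Hexa among them, were also higher in PMJ2R. By that looser rule 6280 of all 15924 tested genes were higher in PMJ2R and 6833 higher in ID8. The phagocyte NADPH oxidase was near absent from ID8: Cybb, its catalytic subunit, stood at 78.7, 77.8 and 81.0 CPM in PMJ2R against 1 count in ID8, and Ncf4 had no count in ID8 against 63.8, 65.4 and 68.0 CPM. General lysosomal enzymes were present in both lines. Lgmn, the protease legumain, stood at 365, 357 and 374 CPM in PMJ2R and 81.9, 79.5 and 89.0 CPM in ID8 (log2 difference 2.13, SE 0.0621, adjusted p = 2.73e-17). Ctsz, a carboxypeptidase, stood at 379, 353 and 403 CPM in PMJ2R and 102, 99.1 and 115 CPM in ID8. Lyz2, the macrophage lysozyme, had no count in ID8 and 159, 135 and 137 CPM in PMJ2R.

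The ovarian surface and mesothelial programme was as one-sided in ID8. Of 38 members, 32 passed the filter and 31 were called higher in ID8, against 25.6% of all tested genes. Since 31 members were present in ID8 and 0 in PMJ2R, most passed the filter through ID8 alone. The median log2 difference was -11.70, or -10.80 with genes of no count at their bound. Krt19, a keratin of simple epithelia, stood at 1623, 1604 and 1744 CPM in ID8 and had no count in PMJ2R, at least 42789-fold higher. Krt18, the partner keratin of Krt8, had a mean of 796 CPM in ID8 and no count in PMJ2R. Wt1, a regulator of mesothelium and gonad, stood at 611, 601 and 567 CPM in ID8 and at 0.0824, 0 and 0.0791 CPM in PMJ2R. Ildr2, a membrane protein, stood at 469, 463 and 404 CPM in ID8 and had a single count in PMJ2R. The 3 ID8 libraries lay close together for each of these and did not overlap with PMJ2R, as for 13236 of the 15924 tested genes. Msln, mesothelin, stood at 260, 255 and 275 CPM in ID8 with 2 counts in PMJ2R. Upk3b and Upk1b, uroplakins of mesothelium, and Bnc1, a zinc finger factor of its precursors, had means of 208, 117 and 63.9 CPM in ID8. Muc16, which encodes the antigen CA125, stood at 17.9, 17.8 and 14.2 CPM in ID8 with a single count in PMJ2R. Lhx9, a gonadal homeobox gene, was the one member called higher in PMJ2R, at 0.618, 1.00 and 0.870 CPM against 0.139, 0.279 and 0.220 CPM in ID8. Calb2, which encodes the mesothelial marker calretinin, had no count in either line.

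ID8 combined epithelial and mesenchymal genes. Of 26 genes of these states, 20 passed the filter and 18 were called higher in ID8, 0 in PMJ2R. Cdh1, the epithelial cadherin, stood at 80.1, 75.4 and 70.3 CPM and Cdh2, the neural cadherin of mesenchyme, at 69.5, 70.4 and 67.0 CPM in ID8, with no count and 1 count in PMJ2R. Per kilobase, the level of Cdh1 in ID8 was 52.5 TPM (CPM divided by exon length and rescaled) and that of Cdh2 27.3 TPM. Vim, vimentin, was present in both lines, at 260, 267 and 270 CPM against 1381, 1384 and 1485 CPM in ID8 (log2 difference -2.42, SE 0.0631, adjusted p = 4.3e-18). Jup and Tjp1, junction proteins, had mean levels of 464 and 342 CPM in ID8 and 3.80 and 0.0119 CPM in PMJ2R. Of the factors that repress epithelial genes, Snai2 had a mean of 31.0 CPM in ID8 and Twist2 15.4 CPM, each with no count in PMJ2R, while Zeb1 was not called at 41.3 CPM in ID8 and 45.6 CPM in PMJ2R. Ocln and Esrp1, 2 genes of polarised epithelium, had 3 counts or fewer in each line.

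**Figure D2:**
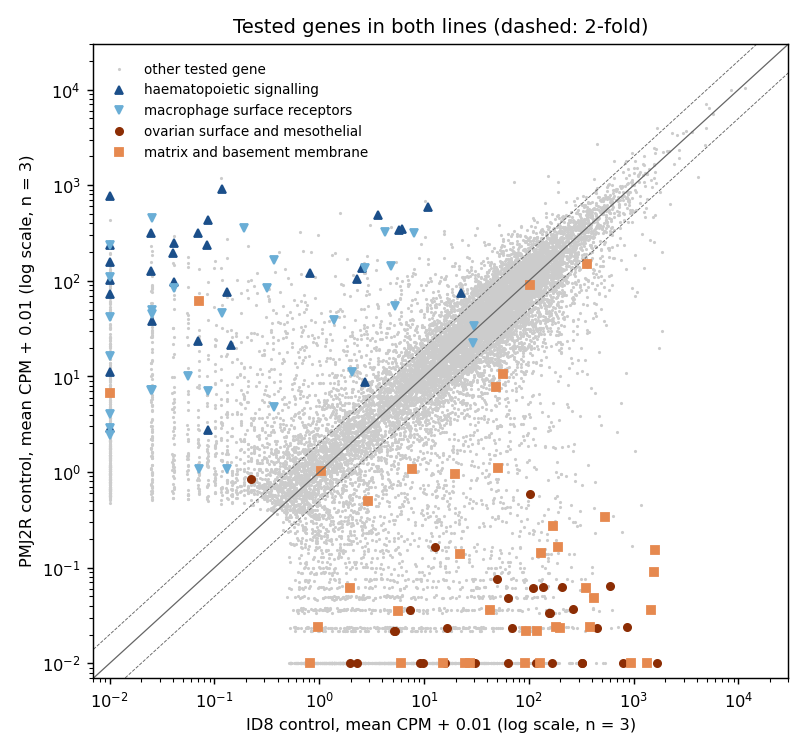
Mean CPM (0.01 added, both axes logarithmic) of each tested gene in ID8 control (x) and PMJ2R control (y), n = 3 libraries a line, with members of 4 gene lists in colour. Dashed lines mark a 2-fold difference; all 30 haematopoietic signalling genes lie above the upper line, and 31 of the 32 tested ovarian surface and mesothelial genes lie below the lower line.

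Transcription factors divided the lines by family. ID8 held the GATA family (5 of 5 tested members called higher in ID8), the SOX family (7 of 7), the TEAD family (4 of 4) and most HOX genes (18 of 23, with 3 higher in PMJ2R), against 25.6% of all tested genes called in that direction. No GATA, SOX or TEAD gene was present in PMJ2R, so most of those tested passed the filter through ID8 alone. Gata4 stood at 170, 163 and 162 CPM in ID8 with no count in PMJ2R. Sox4 and Sox12 had mean levels of 226 and 193 CPM in ID8 and 0.0264 and 0 CPM in PMJ2R. Hoxd8, Hoxc6, Hoxa7 and Hoxa10 were among the HOX genes of ID8, with means from 14.7 to 22.9 CPM, and Hoxa4, Hoxa11 and Hoxb4 were the 3 higher in PMJ2R with means of 3.84, 1.42 and 1.20 CPM. The HOX cofactor Meis1 had means of 46.2 CPM in ID8 and 0.0264 CPM in PMJ2R. Of 33 tested nuclear receptors, 16 were called higher in ID8 and 0 in PMJ2R. Vdr, the vitamin D receptor, had mean levels of 111 CPM in ID8 and 1.12 CPM in PMJ2R. Nr5a1, the steroidogenic factor of the gonad, stood at 65.0, 66.0 and 73.5 CPM in ID8 with 3 counts in PMJ2R. Foxa2, a forkhead factor of endoderm and uterine glands, had a mean of 88.9 CPM in ID8 and no count in PMJ2R.

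Other families were less uniform. In the ETS family 4 members were called higher in PMJ2R and 3 in ID8 among 18 tested, and 11 were not called. These shares are near the 18.1% and 25.6% of all tested genes and are not read as a trait of the family. Besides Spi1, Fli1 had no count in ID8 and 100, 103 and 124 CPM in PMJ2R. Ets1 and Etv4 were the reverse, with means of 126 and 187 CPM in ID8 and 0 and 1.26 CPM in PMJ2R. Among RUNX factors Runx3 stood at 69.0, 84.0 and 109 CPM in PMJ2R and at 0.185, 0.139 and 0.353 CPM in ID8, whereas Runx1 was not called. Ikzf1, the lymphoid and myeloid factor Ikaros, stood at 141, 158 and 154 CPM in PMJ2R with no count in ID8, and its relative Ikzf2 had a mean of 8.55 CPM in ID8. Mef2c, a MADS-box factor, stood at 352, 369 and 368 CPM in PMJ2R against 4.91, 4.64 and 4.81 CPM in ID8 (log2 difference 6.24, SE 0.0785, adjusted p = 1.2e-22). The calcium-responsive factors Nfatc1 and Nfatc2 had means of 108 and 86.4 CPM in PMJ2R and 15.7 and 0.0154 CPM in ID8. In the NF-kB family Rel was higher in PMJ2R, and Nfkb2 and Relb were higher in ID8.

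Of 20 macrophage transcription factors, 17 passed the filter, 7 were called higher in PMJ2R and 4 higher in ID8. The first group included Spi1, Ikzf1, Irf8, Mitf, Bhlhe41 and Tfec. Irf8, a partner of PU.1, stood at 28.1, 30.2 and 32.4 CPM in PMJ2R with a single count in ID8. Mitf, a regulator of lysosomal genes, stood at 20.2, 21.1 and 20.5 CPM in PMJ2R and at 0.695, 0.975 and 0.485 CPM in ID8 (log2 difference 4.84, SE 0.157, adjusted p = 1.64e-16). The 4 higher in ID8 are known in macrophages but also in other cells. Bhlhe40, a repressor that responds to stress and the circadian clock, stood at 363, 352 and 360 CPM in ID8 and at 26.3, 29.9 and 34.8 CPM in PMJ2R. Cebpb, a factor of inflammatory genes, stood at 221, 200 and 227 CPM in ID8 and 69.7, 68.8 and 92.3 CPM in PMJ2R (log2 difference -1.49, SE 0.0964, adjusted p = 7.64e-10). Maf, a leucine zipper factor, stood at 112, 105 and 102 CPM in ID8 and had no count in PMJ2R, at least 2740-fold higher. Klf4 had means of 87.9 CPM in ID8 and 18.6 CPM in PMJ2R. Runx1, Irf5, Zeb2, Cebpa and Nr1h3 were among the 6 tested and not called; Cebpa, needed for myeloid progenitors, had means of 31.6 CPM in ID8 and 34.1 CPM in PMJ2R. Spic and Gfi1 had 1 and 0 counts in PMJ2R.

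**Figure D3:**
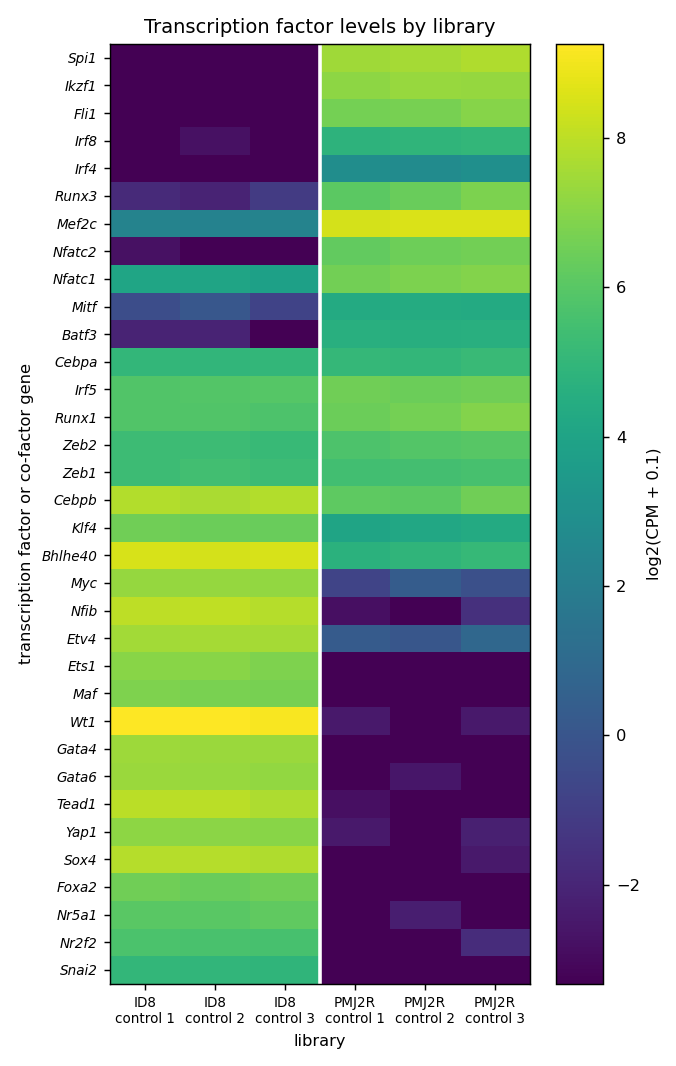
Levels of 34 transcription factor genes (rows) in the 6 control libraries (columns), as log2 of CPM plus 0.1. Spi1 and Ikzf1 at the top are high in the 3 PMJ2R columns only, Cebpa and Zeb1 in the middle are close in both lines, and Wt1 and Gata4 further down are high in the 3 ID8 columns only.

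The YAP and TEAD axis, the nuclear arm of the Hippo pathway that responds to adhesion and stiffness, was found mainly in ID8. All 18 members passed the filter, 16 were called higher in ID8 and 0 in PMJ2R. Among the regulators, Tead1 stood at 252, 248 and 207 CPM in ID8 with a single count in PMJ2R, and Yap1 stood at 139, 133 and 129 CPM in ID8 and at 0.0824, 0 and 0.119 CPM in PMJ2R. Wwtr1, which encodes TAZ, had a mean of 131 CPM in ID8 and 0.0634 CPM in PMJ2R. Of the genes known as their targets, Ccn2 stood at 89.9, 88.1 and 89.2 CPM and Ccn1 at 47.8, 45.3 and 49.3 CPM in ID8, each with no count in PMJ2R. Amotl2, which retains YAP at junctions, stood at 184, 182 and 182 CPM in ID8 and at 0.0412, 0.322 and 0.198 CPM in PMJ2R. Crim1 and Lats2 were also present in PMJ2R, with means of 23.5 and 5.72 CPM. Amotl1 and Vgll4 were not called, at 110 and 43.0 CPM in ID8 and 134 and 37.1 CPM in PMJ2R.

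Promoter sequence of these genes was read from the RefSeq table of the build GRCm38.p6, in which 572 of 767 list genes have an entry. Both strands of the 250 bases before each start were searched for 4 short motifs, and a match is a description of letters, not a binding site. The PU.1 motif GAGGAAGT, which holds the ETS core GGAA, was found in 2.441% of all 32851 promoters and 2.538% of those of tested genes. It was found in 7.734% of the promoters of genes at least 16-fold higher in PMJ2R (57 of 737) and in 2.067% of those of genes at least 16-fold higher in ID8. The composite of PU.1 with an IRF, written GGAA, any 2 bases and GAAA, was found in 2.301% of all promoters, 1.949% of those of tested genes and 2.307% of those of the genes at least 16-fold higher in PMJ2R. In the list of macrophage surface receptors, 4 of 30 promoters (13.333%) held the composite and 2 of 30 (6.667%) the PU.1 motif. The composite was in 0 of 29 promoters of macrophage transcription factors, 0 of 36 of haematopoietic signalling and 0 of 21 of phagocyte oxidase and lysosome genes. The PU.1 motif was in 0, 2 and 1 of these. The 2 PU.1 motifs share the core GGAA and can overlap there. Below are promoter stretches, in the gene's direction, of 4 genes higher in PMJ2R: the Rac exchange factor Vav1, the phosphatase Inpp5d, the DNA sensor Aim2 and the inhibitory receptor Pirb. They are shown because each holds 1 match in the window, which the capitals mark.
Vav1, chr17:57279039-57279099, plus strand: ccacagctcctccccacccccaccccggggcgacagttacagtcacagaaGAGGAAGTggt
Inpp5d, chr1:87620242-87620311, plus strand: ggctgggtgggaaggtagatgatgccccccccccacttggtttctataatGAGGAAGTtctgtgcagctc
Aim2, chr1:173420441-173420548, plus strand: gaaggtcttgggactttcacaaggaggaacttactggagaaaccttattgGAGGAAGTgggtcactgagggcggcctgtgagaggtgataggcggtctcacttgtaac
Pirb, chr7:3720445-3720552, minus strand: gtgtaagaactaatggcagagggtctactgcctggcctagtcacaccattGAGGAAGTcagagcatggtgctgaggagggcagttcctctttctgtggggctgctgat

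Beside these sequences, Aim2 stood at 121, 122 and 118 CPM in PMJ2R and at 2.64, 2.51 and 3.04 CPM in ID8 (log2 difference 5.46, SE 0.0888, adjusted p = 2.29e-21). Pirb stood at 6.80, 6.2 and 8.03 CPM in PMJ2R and at 0, 0.139 and 0.0882 CPM in ID8. Per length, the genes shown differed widely in level within PMJ2R, with 138 TPM for Inpp5d and 5.13 TPM for Pirb. A match was also found for list genes not higher in PMJ2R. Among them were Spp1 and Itgav, both called higher in ID8, and Retnla, with no count in PMJ2R. The window of Spi1 itself held no match.

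The TEAD motif ACATTCC was found in 3.254% of all promoters, in 2.451% of those of tested genes, in 4.248% of those of genes at least 16-fold higher in ID8 and in 2.714% of those at least 16-fold higher in PMJ2R. Within the list of the YAP and TEAD axis, 7 of 19 promoters (36.842%) held it, those of Ajuba, Amotl2, Axl, Ccn1, Tead3, Vgll3 and Yap1. The AP-1 motif TGAGTCA was found in 4.463% of all promoters, in 3.309% of those of tested genes, in 5.683% for genes higher in ID8 and in 3.256% for genes higher in PMJ2R by the same 16-fold rule. Promoter stretches of 5 genes of the axis follow, with the TEAD motif in capitals; in Axl the capitals are its reverse complement.
Ccn1, chr3:145650033-145650139, minus strand: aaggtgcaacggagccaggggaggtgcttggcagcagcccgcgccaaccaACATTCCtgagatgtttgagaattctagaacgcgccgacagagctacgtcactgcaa
Amotl2, chr9:102717688-102717794, plus strand: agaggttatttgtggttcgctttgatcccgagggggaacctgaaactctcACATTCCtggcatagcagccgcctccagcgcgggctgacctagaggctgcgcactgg
Axl, chr7:25788910-25788983, minus strand: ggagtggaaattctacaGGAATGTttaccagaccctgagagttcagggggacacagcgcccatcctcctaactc
Ajuba, chr14:54577792-54577898, minus strand: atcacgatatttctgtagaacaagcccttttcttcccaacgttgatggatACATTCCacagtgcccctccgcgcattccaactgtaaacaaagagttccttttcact
Vgll3, chr16:65815075-65815181, plus strand: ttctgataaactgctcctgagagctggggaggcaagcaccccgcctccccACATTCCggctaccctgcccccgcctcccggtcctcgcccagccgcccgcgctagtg

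These 5 genes were all called higher in ID8. Axl, a receptor for GAS6, stood at 414, 391 and 394 CPM in ID8 and 0.0824, 0.0716 and 0.0791 CPM in PMJ2R. Vgll3, a TEAD cofactor, stood at 16.9, 18.3 and 15.7 CPM in ID8 with no count in PMJ2R. Ajuba, a LIM protein that restrains LATS kinases, stood at 112, 103 and 100 CPM in ID8 with a single count in PMJ2R. Per length their levels in ID8 ran from 7.62 TPM for Vgll3 to 253 TPM for Axl.

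Markers of other blood lineages were partly present in PMJ2R. The B lineage list summed to 198 to 222 CPM in PMJ2R and 2.03 to 2.69 CPM in ID8, most of it from 1 gene. Ighm, the heavy chain of immunoglobulin M, stood at 184, 185 and 207 CPM in PMJ2R with no count in ID8. Bank1, Ighd, Cd22 and Bach2 were the other members present in PMJ2R, with means of 6.81, 2.56, 1.77 and 1.65 CPM. The defining B cell genes were at or near 0: Pax5 had 1 count in PMJ2R, Cd79a had 19, and Ms4a1, Igkc and Pou2af1 had none. In a bulk sample, fewer cells of a type and less RNA per cell cannot be told apart, so these values do not say how many cells carried Ighm; the part of B cells in it was not tested.

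Among the T and NK lineage genes Cd28, Cd2, Lck, Cd5 and Eomes were present in PMJ2R, among them Cd28 at 16.2, 15.7 and 17.2 CPM, and Tcf7, Gata3 and Eomes were present in ID8. Cd3e had 4 counts in PMJ2R and Cd3d, Cd3g and Cd8b1 had 1 each, while Cd8a, Nkg7, Gzma and Gzmb had no count in either line. The list summed to 25.4 to 28.4 CPM in PMJ2R and 27.6 to 31.3 CPM in ID8. Of the dendritic cell list, Tcf4, Bst2, Cd83, Batf3, Irf4, Flt3 and Zbtb46 were present in PMJ2R, and the first 6 were called higher there. Cd83 stood at 61.4, 58.8 and 50.4 CPM in PMJ2R with no count in ID8. Flt3 stood at 6.96, 7.24 and 6.72 CPM in PMJ2R with no count in ID8, and the dendritic cell receptors Xcr1, Clec9a and Cd209a had at most 0.228 CPM on average. The list summed to 365 to 378 CPM in PMJ2R and 98.8 to 101 CPM in ID8, where Ccr7, Ly75, Tcf4, Bst2 and Zbtb46 were present. Of the granulocyte and mast cell list, summing to 29.3 to 35.5 CPM in PMJ2R and 14.7 to 17.3 CPM in ID8, Cxcr2, Csf3r, Cebpe and Prtn3 were present in PMJ2R and Kit and Gata2 in ID8. Cxcr2 stood at 17.2, 18.8 and 20.1 CPM in PMJ2R, while S100a9, Ly6g and Ngp, granule and surface genes of neutrophils, had no count in either line. The part of other cells in these levels was not tested.

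Other cell types of the ovary were represented in ID8 by parts of their lists. Of the granulosa, theca and germ cell list, Star, Nr5a1, Amhr2, Inhbb, Inhba and Inha were present and called higher in ID8, and Star and Amhr2 were present in PMJ2R too. Star, which carries cholesterol into mitochondria for steroid synthesis, stood at 79.4, 85.0 and 88.9 CPM in ID8 and at 7.66, 7.56 and 7.63 CPM in PMJ2R. The defining genes of those cells were at the floor: Foxl2 had 2 counts in ID8, and Fshr, Lhcgr, Cyp11a1 and Hsd3b1 had none. The list summed to 225 to 238 CPM in ID8 and 17.0 to 18.0 CPM in PMJ2R. Of the Mullerian and tubal epithelium list, Cdh1, Cldn3, Wfdc2, Epcam, Elf3, Pax8, Esr1 and Ovgp1 were present in ID8, and Esr1 and Ovgp1, which were not called, were present in PMJ2R. Pax8, the marker of the Mullerian lineage, stood at 1.44, 1.49 and 1.68 CPM in ID8, and Pax2, Sox17 and Krt5 had at most 1 count there. That list summed to 103 to 112 CPM in ID8 and 10.9 to 11.5 CPM in PMJ2R.

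Fibroblast genes were also partly present in ID8. Dcn, Col1a1, Col3a1 and Pdgfra were present there and none of the 16 members was present in PMJ2R. Dcn, the proteoglycan decorin, stood at 122, 125 and 134 CPM in ID8 with no count in PMJ2R, and Col1a1 at 134, 114 and 112 CPM with a single count in PMJ2R. Col1a2, the partner chain of Col1a1, had 12 counts in ID8, and Thy1, Lum and Postn had none. The list summed to 273 to 291 CPM in ID8. Of 16 endothelial genes, Flt4, Flt1 and Esam were present in ID8 and Egfl7, Vwf and Flt1 in PMJ2R, with list sums of 211 to 235 CPM and 25.3 to 28.9 CPM. Flt4, a receptor for VEGF-C, stood at 114, 108 and 99.7 CPM in ID8 with a single count in PMJ2R. Egfl7 stood at 17.8, 19.2 and 16.2 CPM in PMJ2R, and its exons overlap Agpat2 on the opposite strand. Cldn5 and Erg had no count in either line, and Kdr, Tie1 and Tek had at most 8 counts in any line; the part of fibroblasts or endothelial cells was not tested.

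Receptor tyrosine kinases, which bind growth factors at the cell surface, belonged almost wholly to ID8. Of 49 members, 32 passed the filter, 28 were called higher in ID8 and 2, Csf1r and Flt3, higher in PMJ2R. Ddr1, a collagen receptor, stood at 284, 263 and 253 CPM in ID8 and 1.52, 1.47 and 2.02 CPM in PMJ2R. Epha2 stood at 271, 260 and 258 CPM in ID8 and 23.9, 22.7 and 25.9 CPM in PMJ2R, which made it present in both. Egfr stood at 158, 161 and 146 CPM in ID8 with 2 counts in PMJ2R. Met, the receptor for HGF, had no count in PMJ2R and a mean of 111 CPM in ID8, and Igf1r had means of 132 CPM in ID8 and 0.0945 CPM in PMJ2R. Insr and Erbb3 were the 2 not called, with differences of -0.13 and -0.02 on the log2 scale. Of TIE2 and its relative, Tek had no count in ID8 and 8 in PMJ2R, and Tie1 had 0 and 1.

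Of 32 cytokine receptors, 29 passed the filter, 12 were called higher in PMJ2R and 8 higher in ID8. Il6ra, the specific chain of the interleukin 6 receptor, stood at 86.4, 85.5 and 90.9 CPM in PMJ2R and at 6.25, 5.53 and 5.86 CPM in ID8, whereas its signalling partner Il6st was not called at means of 219 and 136 CPM. Il2rg, the common gamma chain, stood at 70.2, 61.4 and 78.0 CPM in PMJ2R and 0.324, 0.186 and 0.441 CPM in ID8. Csf2rb, the signalling chain for GM-CSF, had no count in ID8 and 38.9, 41.7 and 45.3 CPM in PMJ2R. Tnfrsf1a stood at 185, 180 and 186 CPM in ID8 and 54.9, 53.4 and 57.5 CPM in PMJ2R (log2 difference -1.73, SE 0.0598, adjusted p = 4.57e-16). Lifr stood at 162, 161 and 147 CPM in ID8 and 39.9, 39.3 and 38.1 CPM in PMJ2R. Osmr, the oncostatin M receptor, was close to absent from PMJ2R, with 4 counts there and 114, 118 and 112 CPM in ID8. Il11ra1 was called higher in ID8, but its exons overlap those of Ccl27a on the other strand. Outside this list, Tnfrsf11a, the receptor RANK, had means of 52.9 CPM in PMJ2R and 0.0890 CPM in ID8. Ifngr1, a chain of the interferon gamma receptor, was not called, with means of 32.6 CPM in ID8 and 32.0 CPM in PMJ2R.

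Of 12 receptors of the TGF-beta family, 9 were present in both lines, 5 were called higher in ID8 and 2 higher in PMJ2R. Tgfbr2 stood at 120, 119 and 111 CPM in ID8 and 30.5, 29.8 and 34.0 CPM in PMJ2R (log2 difference -1.89, SE 0.0686, adjusted p = 1.05e-15). Acvrl1 and Acvr2b were the 2 higher in PMJ2R, with means of 8.27 and 8.17 CPM. Of 26 receptors for chemokines and chemoattractants, 14 passed the filter, 9 were called higher in PMJ2R and 2 higher in ID8. Cxcr4, the receptor for CXCL12, stood at 22.3, 20.7 and 24.8 CPM in PMJ2R and 0.463, 0.372 and 0.794 CPM in ID8. P2ry6, a receptor for UDP, stood at 25.2, 23.3 and 29.1 CPM in PMJ2R and 0.232, 0.0464 and 0.309 CPM in ID8. Ccr7 and S1pr3 were the 2 higher in ID8, and Ccr7, a homing receptor of dendritic cells, stood there at 11.4, 10.8 and 12.3 CPM.

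Sensors of microbial products and nucleic acids were mostly higher in PMJ2R, 21 of 27 tested members against 18.1% of all tested genes, and 4 were higher in ID8. Tlr7 stood at 109, 103 and 95.6 CPM in PMJ2R and 23.8, 24.1 and 25.0 CPM in ID8. Nlrp3, the sensor of an inflammasome, had no count in ID8 and 40.7, 39.8 and 45.5 CPM in PMJ2R. Tmem173, which encodes STING, stood at 155, 151 and 154 CPM in PMJ2R and 35.7, 33.8 and 35.5 CPM in ID8. Unc93b1, which escorts nucleic acid sensing Toll-like receptors and was named by its level outside the list, had means of 331 CPM in PMJ2R and 15.4 CPM in ID8. The 4 members higher in ID8 were Nod1, Ddx58, Ifih1 and Tlr3, of which the last 3 sense viral RNA. Nod1 stood at 98.9, 93.7 and 86.9 CPM in ID8 and at 0.453, 0.466 and 0.316 CPM in PMJ2R, and its relative Nod2 was the reverse, with a single count in ID8 and means of 6.68 CPM in PMJ2R.

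Adhesion receptors exchanged members between the lines. Itga4, which binds VCAM1, stood at 284, 291 and 301 CPM in PMJ2R with 2 counts in ID8. Itga3, a laminin receptor, was the reverse at 817, 774 and 714 CPM in ID8 and 0.0824, 0.322 and 0.277 CPM in PMJ2R. Of 34 genes of the actin, integrin and adhesion machinery, 29 passed the filter, 21 were called higher in ID8 and 2, Itga4 and Itgb7, higher in PMJ2R. Cald1, caldesmon, stood at 976, 989 and 922 CPM in ID8 and 0.206, 0.107 and 0.158 CPM in PMJ2R, and Cav1, the caveolar coat protein, had no count in PMJ2R and a mean of 127 CPM in ID8. Flna and Tpm1 were abundant in both, with means of 1522 and 1028 CPM in ID8 and 466 and 68.7 CPM in PMJ2R. Among guidance molecules, 12 of 16 tested semaphorins were higher in ID8, among them Sema3c at a mean of 240 CPM with no count in PMJ2R. Sema4d was one of the 2 higher in PMJ2R, with means of 86.7 CPM there and 0.0464 CPM in ID8.

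**Figure D4:**
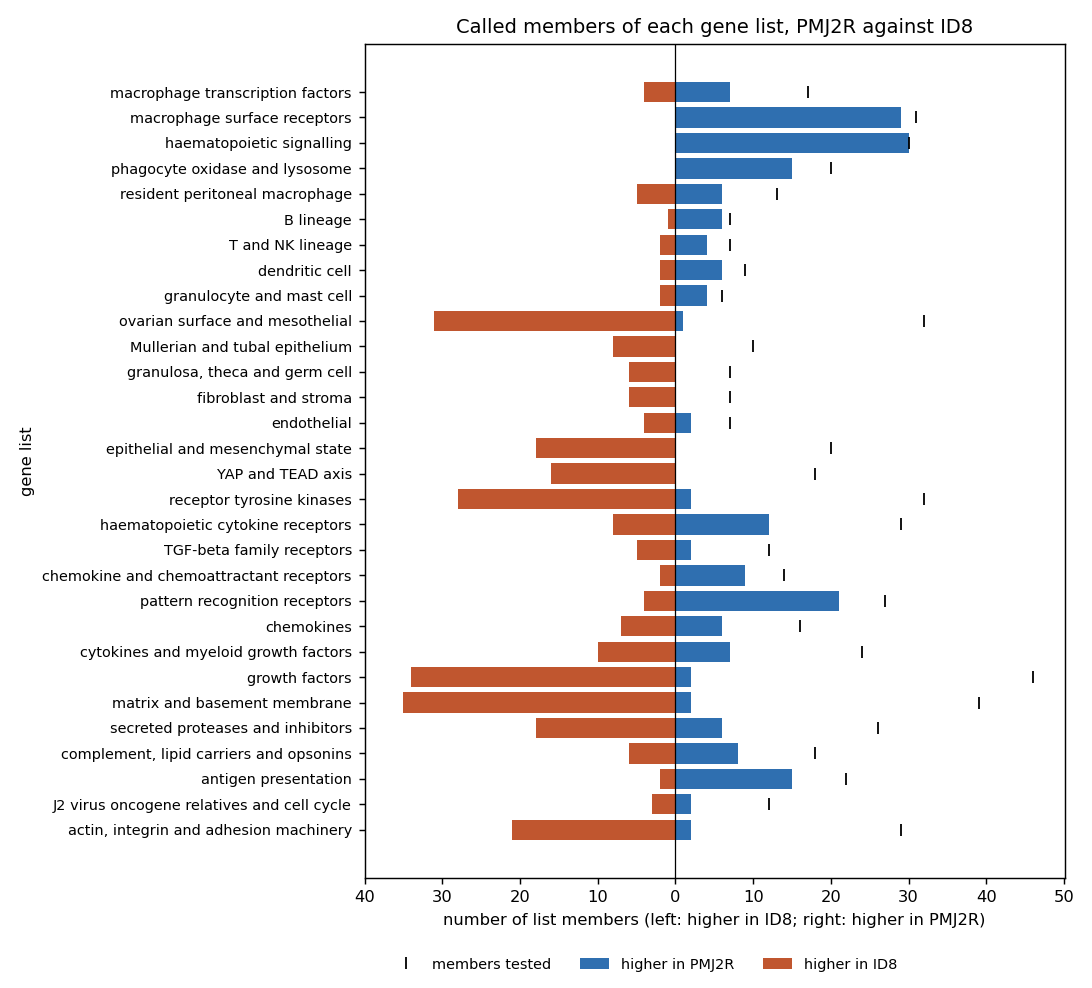
Number of members of each gene list called higher in ID8 (bars to the left) or in PMJ2R (bars to the right) at an adjusted p under 0.05 and at least a 2-fold difference, with ticks for the members that passed the expression filter. All 30 haematopoietic signalling genes point to PMJ2R, and 31 ovarian surface and mesothelial, 35 matrix and 34 growth factor genes point to ID8.

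Growth factor genes were mainly higher in ID8. Of 60 growth factors, 46 passed the filter, 34 were called higher in ID8 and 2, Pros1 and Angpt2, higher in PMJ2R. Vegfa, the main angiogenic factor, stood at 361, 334 and 334 CPM in ID8 and 34.6, 35.7 and 44.0 CPM in PMJ2R (log2 difference -3.17, SE 0.0809, adjusted p = 3.28e-18). Btc, a ligand of the EGF receptor, stood at 156, 152 and 145 CPM in ID8 and at 0.124, 0.107 and 0 CPM in PMJ2R. Tgfb3 stood at 152, 155 and 145 CPM in ID8 and at 0.0412, 0.107 and 0.198 CPM in PMJ2R. Grem1, which binds BMPs, had no count in PMJ2R and 108, 113 and 105 CPM in ID8. Other ligands of the EGF receptor had the same direction, with means in ID8 of 58.0 CPM for Tgfa, 21.5 CPM for Ereg and 5.47 CPM for Areg and no count in PMJ2R. Tgfb1 was not called, at means of 100 CPM in ID8 and 153 CPM in PMJ2R (log2 difference 0.62). Of 11 tested WNT genes, 10 were called higher in ID8, among them Wnt10a and Wnt6 at means of 272 and 204 CPM against 0.0264 and 0.934 CPM in PMJ2R. Hgf had 1 count over the 6 libraries and Igf2 had none.

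Of 37 genes of the cytokine list, 24 passed the filter, 10 were called higher in ID8 and 7 higher in PMJ2R. Spp1, osteopontin, stood at 1756, 1808 and 1992 CPM in ID8 and 31.2, 29.2 and 28.2 CPM in PMJ2R (log2 difference -5.97, SE 0.0824, adjusted p = 2.9e-22). Csf1, the growth factor of macrophages, stood at 129, 125 and 121 CPM in ID8 and at 6.22, 6.2 and 7.24 CPM in PMJ2R. Il1rn, the antagonist of interleukin 1, stood at 163, 163 and 167 CPM in ID8 and 3.34, 2.94 and 3.60 CPM in PMJ2R. Clcf1 and Lif, cytokines of the interleukin 6 family, had means of 145 and 44.3 CPM in ID8 and 0.130 and 0.325 CPM in PMJ2R. Those higher in PMJ2R included the inflammatory cytokines TNF and oncostatin M. Tnf stood at 10.1, 10.2 and 11.3 CPM in PMJ2R with no count in ID8, at least 230-fold higher, and Osm at 3.79, 3.58 and 3.08 CPM with no count in ID8. Ltb, Cd40, Tnfsf13b, Il18 and Il27 were the other 5, with means from 1.62 to 8.11 CPM. Cd40 stands in this list but encodes a receptor, not a cytokine. Il1b and Il6, classical products of activated macrophages, had 38 and 15 counts in PMJ2R and none in ID8, and Il10 and Il12b had 0 and 1 counts in PMJ2R.

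Of 27 chemokines, 16 passed the filter, 6 were called higher in PMJ2R and 7 higher in ID8. Pf4, a platelet and macrophage chemokine, stood at 16.4, 16.4 and 16.6 CPM in PMJ2R with no count in ID8, and Ccl9 stood at 12.3, 10.6 and 12.6 CPM in PMJ2R and 0.278, 0.372 and 0.441 CPM in ID8. Cxcl16, a membrane-bound chemokine, stood at 76.9, 73.7 and 79.2 CPM in ID8 against 0.371, 0.394 and 0.277 CPM in PMJ2R. Cxcl12 stood at 30.0, 28.2 and 28.9 CPM in ID8 with no count in PMJ2R, at least 750-fold higher. Ccl2, the attractant of monocytes, was not called, with means of 7.93 CPM in ID8 and 9.58 CPM in PMJ2R.

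Transcripts of extracellular matrix genes were mostly higher in ID8. By symbol, 15 of 22 tested collagens were called higher in ID8 and 3 higher in PMJ2R. Of 9 tested laminins, 8 were called higher in ID8 and 1 higher in PMJ2R. Of 46 members of the matrix list, 39 passed the filter, 35 were called higher in ID8 and 2 higher in PMJ2R. Their median log2 difference was -10.21, or -9.33 with genes of no count at their bound, and the list summed to 10183 to 11225 CPM in ID8 and 313 to 357 CPM in PMJ2R. Fn1, fibronectin, stood at 1735, 1604 and 1402 CPM in ID8 and at 0, 0 and 0.237 CPM in PMJ2R. Hspg2, the basement membrane proteoglycan perlecan, stood at 1641, 1490 and 1251 CPM in ID8 with 2 counts in PMJ2R. Bgn, biglycan, had no count in PMJ2R and 1349, 1324 and 1362 CPM in ID8. Basement membrane chains followed: Lama5 had a mean of 534 CPM, Col4a1 416 CPM and Col4a2 349 CPM in ID8, and the 2 collagen genes overlap each other on opposite strands. Serpinh1, the collagen chaperone, had a mean of 950 CPM in ID8 and no count in PMJ2R. The 2 members higher in PMJ2R are also matrix proteins: Nid2, a linker of the basement membrane, stood at 59.2, 61.8 and 65.8 CPM in PMJ2R and at 0.0927, 0.0929 and 0 CPM in ID8, and Fbln1 had no count in ID8 and a mean of 6.67 CPM in PMJ2R. Nid1, the relative of Nid2, was the reverse, with a mean of 6.02 CPM in ID8 and no count in PMJ2R.

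Proteases and their inhibitors followed the matrix, with 18 of 26 tested members higher in ID8 and 6 higher in PMJ2R. Timp2, an inhibitor of metalloproteases, stood at 1193, 1188 and 1149 CPM in ID8 and 0.618, 0.251 and 0.475 CPM in PMJ2R. Mmp11 stood at 315, 299 and 318 CPM in ID8 and 0, 0.107 and 0.0395 CPM in PMJ2R. Cst3, the cathepsin inhibitor cystatin C, stood at 438, 386 and 401 CPM in PMJ2R against 112, 113 and 131 CPM in ID8. Plau, urokinase, stood at 35.8, 34.4 and 40.9 CPM in PMJ2R and 6.81, 7.15 and 6.09 CPM in ID8, while its receptor Plaur had means of 54.6 CPM in ID8 and 2.99 CPM in PMJ2R. Mmp12, the macrophage elastase, stood at 4.49, 3.76 and 5.85 CPM in PMJ2R with no count in ID8, and Mmp9 had 8 counts in PMJ2R.

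Of 27 genes for complement, lipid carriers and opsonins, 18 passed the filter, 8 were called higher in PMJ2R and 6 in ID8. C1qa, C1qb and C1qc, which most tissue macrophages express, had 0, 5 and 3 counts in PMJ2R. Cfp, properdin, stood at 137, 126 and 131 CPM in PMJ2R and 3.85, 2.83 and 3.75 CPM in ID8. Hpgd, which degrades prostaglandins, had no count in ID8 and 226, 225 and 203 CPM in PMJ2R. C3, the central complement protein, was present in both lines, at 547, 534 and 524 CPM in ID8 and 233, 256 and 266 CPM in PMJ2R (log2 difference -1.09, SE 0.0629, adjusted p = 2.56e-12). The call on C3 was lost with all 12 libraries in the fit (log2 difference -0.98), with upper quartile scaling (-0.97) and in a test against a 2-fold threshold (adjusted p = 0.0713). Clu, clusterin, stood at 371, 390 and 400 CPM in ID8 with 3 counts in PMJ2R. The polarisation genes Arg1, Chil3 and Retnla were low or absent in PMJ2R, with a mean of 0.727 CPM for Arg1 and no count for the other two.

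Genes of antigen presentation were higher in PMJ2R in 15 of 22 tested members, and 2, Tapbp and Cd47, were higher in ID8. Cd74, the invariant chain of class II molecules, had the highest CPM among genes at least 16-fold higher in PMJ2R, at 1138, 1169 and 1270 CPM there and 0.0927, 0.0929 and 0.132 CPM in ID8 (log2 difference 13.38, SE 0.138, adjusted p = 3.32e-23). The class II chains that it escorts were low in the same libraries. H2-Eb1 stood at 1.32, 1.29 and 1.90 CPM, H2-Aa at 0.865, 1.50 and 1.07 CPM, and H2-Ab1 had 14 counts in PMJ2R. Ciita, the transactivator of class II genes, stood at 1.65, 1.58 and 2.77 CPM in PMJ2R. Per kilobase, Cd74 was at 2329 TPM and H2-Aa at 0.991 TPM in PMJ2R. Class I genes were present in both lines: H2-K1 stood at 305, 308 and 306 CPM in PMJ2R and 76.4, 73.2 and 79.6 CPM in ID8, and H2-D1 was not called. Cd86, a costimulatory ligand, had no count in ID8 and 18.5, 19 and 16.2 CPM in PMJ2R, and Cd274, which encodes PD-L1, had means of 7.45 CPM in PMJ2R and 2.08 CPM in ID8.

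Ligands and receptors were then set side by side in 84 known pairs. A ligand present in ID8 met a receptor present in PMJ2R in 36 pairs, and a ligand present in PMJ2R met a receptor present in ID8 in 21 pairs. Within 1 line both sides were present in 37 pairs for ID8 and 20 pairs for PMJ2R, and in 31 pairs at least 1 side was present in neither line. In 11 of the 84 pairs the ligand was called higher in ID8 and the receptor higher in PMJ2R. Of all tested genes, 25.6% were called higher in ID8 and 18.1% higher in PMJ2R. No count was made for ligands and receptors that do not match. The 11 pairs, and the 6 of the reverse direction below, are therefore not read as a trait of matched pairs. The 11 include Csf1 and Il34 with Csf1r, Cxcl12 with Cxcr4, Cd47 with Sirpa, Vcam1 with Itga4, Lgals9 with Havcr2, and C3 with C3ar1 and Itgam. Il33 and its receptor Il1rl1 were each present in a single line: Il33 stood at 9.87, 11.1 and 11.2 CPM in ID8 with 2 counts in PMJ2R, and Il1rl1 at 22.1, 19.4 and 24.5 CPM in PMJ2R with 2 counts in ID8. Dll1 had no count in PMJ2R and a mean of 29.9 CPM in ID8, and Notch1 had means of 22.3 CPM in PMJ2R and 0.916 CPM in ID8. Thbs1 with Cd36 completed the 11. The 2 pairs with C3 rest on the call of C3 described above, and 9 pairs were counted with all 12 libraries, with upper quartile scaling or in the test against a 2-fold threshold. When the filter was raised to a 5 CPM mean, 7 pairs were counted, because fewer genes were tested.

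In 6 pairs the ligand was higher in PMJ2R and the receptor higher in ID8: Osm with Osmr, Tnf with Tnfrsf1a and Tnfrsf1b, Pros1 with Tyro3, Apoe with Lrp1 and Plau with Plaur. Osm and Osmr were the one pair of this direction with each side present in a single line. Lrp1, a scavenger receptor, was present in both at means of 1019 CPM in ID8 and 185 CPM in PMJ2R. Ccl2 was present in both lines and its receptor Ccr2 in neither, so that pair was not counted in any direction. Tnfsf11, the ligand of Tnfrsf11a, had 30 counts in ID8 and none in PMJ2R and was likewise present in neither. The counts describe transcript presence and share the libraries of the tests above.

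**Figure D5:**
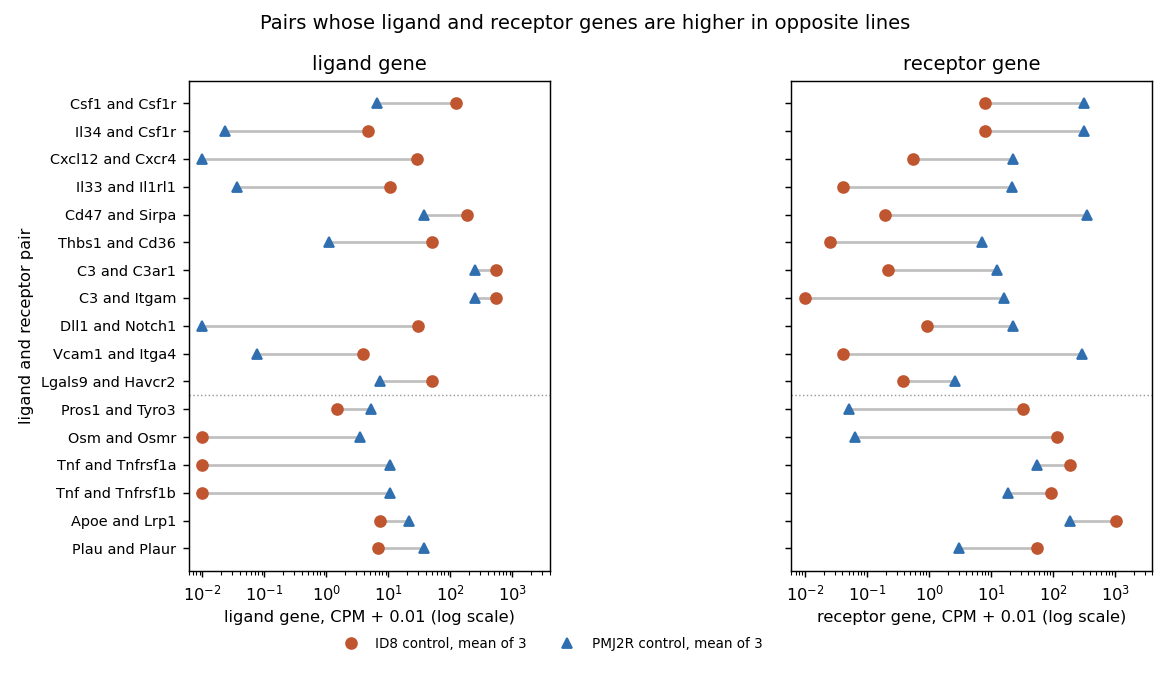
Mean CPM (log axis) of ligand and receptor in ID8 and PMJ2R control cells for the 11 pairs with the ligand higher in ID8 and the receptor higher in PMJ2R (above the dotted line; the 2 with C3 rest on a call that 3 alternative fits lost) and the 6 pairs with the reverse (below it). Csf1 stands at 125 CPM in ID8 and Csf1r at 315 CPM in PMJ2R, and Osm at 3.49 CPM in PMJ2R and Osmr at 115 CPM in ID8.

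The genes related to the oncogenes of PMJ2R and to proliferation gave a last description of the lines. Myc stood at 153, 152 and 149 CPM in ID8 and at 0.495, 1.18 and 0.751 CPM in PMJ2R (log2 difference -7.51, SE 0.124, adjusted p = 2.96e-21). Whether reads of the viral oncogene were counted at Myc was not tested. Ccnd2 was higher in ID8, and Cdkn1a, the inhibitor p21, was higher in PMJ2R at 312, 318 and 357 CPM against 74.5, 71.1 and 72.1 CPM. Ccnd1 was called higher in PMJ2R at 372, 390 and 409 CPM against 187, 188 and 197 CPM (log2 difference 1.03), a call lost in the test against a 2-fold threshold (adjusted p = 0.285). Mki67 and Top2a, made by dividing cells, were not called and had means of 871 and 871 CPM in ID8 and 1025 and 584 CPM in PMJ2R. Cdkn2a, a tumour suppressor, had no count in any library.

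Of the genes with the highest CPM among those at least 16-fold apart, a few had no place in the lists. In ID8 these were Trf, the iron carrier transferrin, with a mean of 1729 CPM against 20.0 CPM in PMJ2R, Atp1b1, a subunit of the sodium pump, with 1019 against 1.65 CPM, and Tsc22d1, a leucine zipper protein, with 847 against 11 CPM. In PMJ2R they were, besides Unc93b1 given above, Arhgef6, a Rac exchange factor, with 515 against 1.55 CPM, Wdfy4, which serves cross-presentation in dendritic cells, with 432 CPM and no count in ID8, and Ccdc88b with 325 against 0.651 CPM. Several genes named above share exon bases with a gene on the other strand, among them Csf1r with Hmgxb3, Cebpb with Tmem189, Arhgdib with Pde6h and Itga4 with Cerkl. The strand setting of the counting is not given in the sources used here, so reads of such pairs cannot be told apart.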

How the data were processed

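Messenger RNA was measured in cultured cells, and the 3 control libraries of each line entered the fit. The authors deposited 1 table of raw gene counts for 55421 identifiers. Per the submitters' processing notes, STAR 2.6.1c and featureCounts were among the tools, along with FastQC and DESeq2, and the build was GRCm38. For the annotation, the strand setting and reads with several matches, the sources used here give nothing. Chemotherapy arms named in the series' design are not analysed here. Replicate numbers came from the sample titles.

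Symbols, positions and exon lengths came from GENCODE vM21, which left 181 identifiers with 0.00244% of the counts without a symbol. The lines were compared with edgeR 4.0.16 in R 4.3.3 (TMM scaling, default expression filter, robust quasi-likelihood test, Benjamini-Hochberg adjustment over all tested genes), and a call needed an adjusted p under 0.05 and at least a 2-fold difference. CPM, counts scaled to a library of one size, used the TMM factors, and TPM divided them by exon length. A fold against a line with no count was taken against 3 counts over that line's TMM-scaled libraries, and ratios with 1 to 3 counts carry exact 95% intervals. The procedure was tested on simulated data with far fewer changed genes than were called here, so that test does not cover a contrast this wide. The members, 33 gene lists, 62 symbol families and 84 pairs were chosen with earlier results of these data known, and no set test was run. Values by library were given for up to 4 called members a list with the highest CPM, and by name for the 15 genes a direction with the highest CPM among those at least 16-fold apart; further members of the lists were named for their role. Alternatives were DESeq2 1.42.0, limma 3.58.1, other scalings and filters, a replicate block and leaving out each library. Same-numbered libraries of the lines did not deviate together (correlations -0.0496, 0.0097 and -0.041).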

Additional observations from a re-analysis of the deposited data

How the results depend on the processing

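The main counts were 2890 genes higher in PMJ2R and 4076 higher in ID8. Left to a mean of at least 5 CPM, 1578 and 2395 were called, with 118 list genes higher in PMJ2R in place of 191, because fewer genes were tested. Without the fold condition 6280 and 6833 passed. DESeq2 called 2810 and 4131, RLE scaling 2827 and 4139, limma-voom 2891 and 4092, upper quartile scaling 3240 and 3829, library totals 3133 and 3903, no expression filter 3866 and 5385, a test against a 2-fold threshold 2448 and 3705, and all 12 libraries in the fit 3349 and 3962. Leaving out 1 library at a time gave 2946 to 3038 genes higher in PMJ2R and 4216 to 4317 higher in ID8. The same fits called 193 to 198 and 269 to 279 list genes, against 191 and 266, and gave 36 and 21 pairs throughout. The fit with a replicate block gave 2882 and 4076; the replicate numbers share only a number, and not every library correlated best with its own. Of the 6966 calls, 0 reversed under any alternative run. Of 457 called list genes, 5 lost the call under 1 or more of the alternatives that tested them: C3, Ccnd1, H2-DMb1, Il4ra and Itgb1. Il4ra had log2 differences of -0.96 without ID8 control replicate 1 and -0.97 without PMJ2R control replicate 2; Ccnd1 had a log2 difference of 1.00, just under the threshold, without ID8 control replicate 2. Upper quartile scaling and the fit to all 12 libraries each moved the median of all genes by 0.11. At 5 CPM for presence, an alternative chosen after seeing the data, 27 and 14 pairs were counted. Of the depth, genes with fewer than 3 counts in a line have a level known only as a bound.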

Other observations

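Xist, the RNA that silences one X chromosome in female cells, was present in both lines and called higher in PMJ2R, at 2643, 2696 and 2796 CPM against 485, 483 and 379 CPM in ID8 (log2 difference 2.59, SE 0.0846, edgeR quasi-likelihood adjusted p = 2.07e-16). It overlaps Tsix on the other strand. The Y-linked genes Ddx3y, Kdm5d, Uty and Eif2s3y had no count in any of the 6 libraries. Among families defined by symbol, all 9 tested keratins and all 5 tested claudins were called higher in ID8, against 25.6% of all tested genes. All 6 tested Fc receptors and 5 of 6 tested Siglecs were called higher in PMJ2R, against 18.1%. In PMJ2R 0 keratins and 1 claudin were present, and in ID8 2 Fc receptors and 0 Siglecs. Most of those tested thus passed the filter through 1 line, which fixes their direction. Cldn2, a claudin that forms cation pores, had a mean of 171 CPM in ID8 and no count in PMJ2R. Cd33, an inhibitory Siglec, had a mean of 41.4 CPM in PMJ2R and no count in ID8.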
